A study of Mus musculus with 12 samples.

Results

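Genes of the mature surface of the colon were followed in serial biopsies of colon tumors: the guanylin ligands Guca2a and Guca2b and their receptor Gucy2c, the brush border genes Cdhr2, Cdhr5, Vil1 and Myo1a, and the surface proteins Ceacam1, Ceacam20 and Lypd8. These 10 genes were taken by symbol from probe sets that carry exactly 1 gene symbol, and 10 of 10 were found, each by 1 probe set, among 19938 measured genes. The tumors grew in 6 F1 hybrid mice of SWR dams and C57BL/6 sires, heterozygous for the germline Min mutation of the tumor suppressor Apc (Apc Min/+). All mice had drunk 4% dextran sodium sulfate, which damages the epithelium of the colon, in 2 courses of 4 days around weaning, so no group lacked the mutation or the injury. A first and a last colonoscopic biopsy of a tumor were hybridised to Affymetrix arrays for every mouse, which gives 12 arrays. The last biopsy was read as adenoma in mice 1755, 1803 and 1805 and as intramucosal carcinoma in mice 2201, 3407 and 3413. An early biopsy has no reading of its own and is placed here with the pathology that its tumor later received. Early biopsies were taken at 89 ± 4.36 days of age in the adenoma mice and 100 ± 15.5 days in the carcinoma mice, and late ones at 333 ± 86.4 and 227 ± 35.2 days (SD, n = 3 each). Each pathology had 2 male mice and 1 female. Normal mucosa was not analysed here, so levels are compared between tumors only.

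Guanylin (Guca2a) and uroguanylin (Guca2b) are small peptides released into the gut lumen, where they bind guanylate cyclase C (Gucy2c) on the apical membrane and raise cyclic GMP, which opens the chloride channel Cftr and slows sodium uptake. The brush border is the carpet of microvilli on that same membrane: villin (Vil1) bundles its actin, the motor Myo1a ties the bundle to the membrane, and the cadherins Cdhr2 and Cdhr5 link the tips of neighbouring microvilli to each other. Ceacam20 is a microvillus glycoprotein of intestinal epithelium, Ceacam1 an adhesion receptor of epithelial and other cells, and Lypd8 a surface protein shed into the mucus that binds flagellated bacteria. In normal colon many, but not all, of these genes are strongest in cells that have left the crypt base, and loss of guanylin is a well known feature of colorectal tumors.

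Values are log2 array intensities as deposited, so a difference of 1 is a doubling, and levels of different genes are not compared because each probe set has its own response. The arrays were split into groups by the submitters' sample numbers, 155 to 255 and 319 to 379, after a shift had been seen on 50 probe sets without a gene symbol. The labels name no batch. The mean of these probe sets was 7.08 to 7.19 in the early biopsies of all adenoma mice and of mouse 2201 (the first array group), and 6.80 to 6.94 in the remaining 8 biopsies (the second). The second array group thus holds every late biopsy and the whole pairs of mice 3407 and 3413, so array group goes together with time point and, in the early biopsies, with pathology. The median correlation of an array with the rest was lowest, at 0.973, for the late biopsy of mouse 1805, and 0.979 to 0.988 for the others. Epithelial markers (Epcam, Cdh1, keratins and claudins, 8 genes) were high on every array, with a mean of 12.79 to 13.27. Biopsies are mixed tissue, and fewer surface cells cannot be told apart from less RNA per surface cell.

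All 10 genes were lower on average in tumors with final carcinoma than in those with final adenoma, at the early biopsy and at the late biopsy. None passed the threshold of 0.05 in limma's moderated test after Benjamini-Hochberg adjustment over all 19938 genes, and neither comparison called any gene (0% of genes tested). The median difference of the 10 was -1.01 at the early biopsy, against 0.041 over all genes, and -0.91 at the late biopsy, against 0.016. Differences were below 0 for 10 of 10 members at either time, against 39.9% of all genes early and 45.8% late. An unadjusted p under 0.05 with the lower value in carcinoma was reached by 7 of 10 members early, against 4.9% of all genes, and by 7 of 10 late, against 5% of all genes. The members were chosen with earlier results of these data known, many of them varied together, and both times come from the same mice. These counts and those below are therefore descriptions and not separate tests. For most members the p-values at 1 time point are also likely too small, because biopsies of a mouse were alike. The groups are small, so a p above the threshold does not show that a gene was alike in both pathologies.

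**Figure D1:**
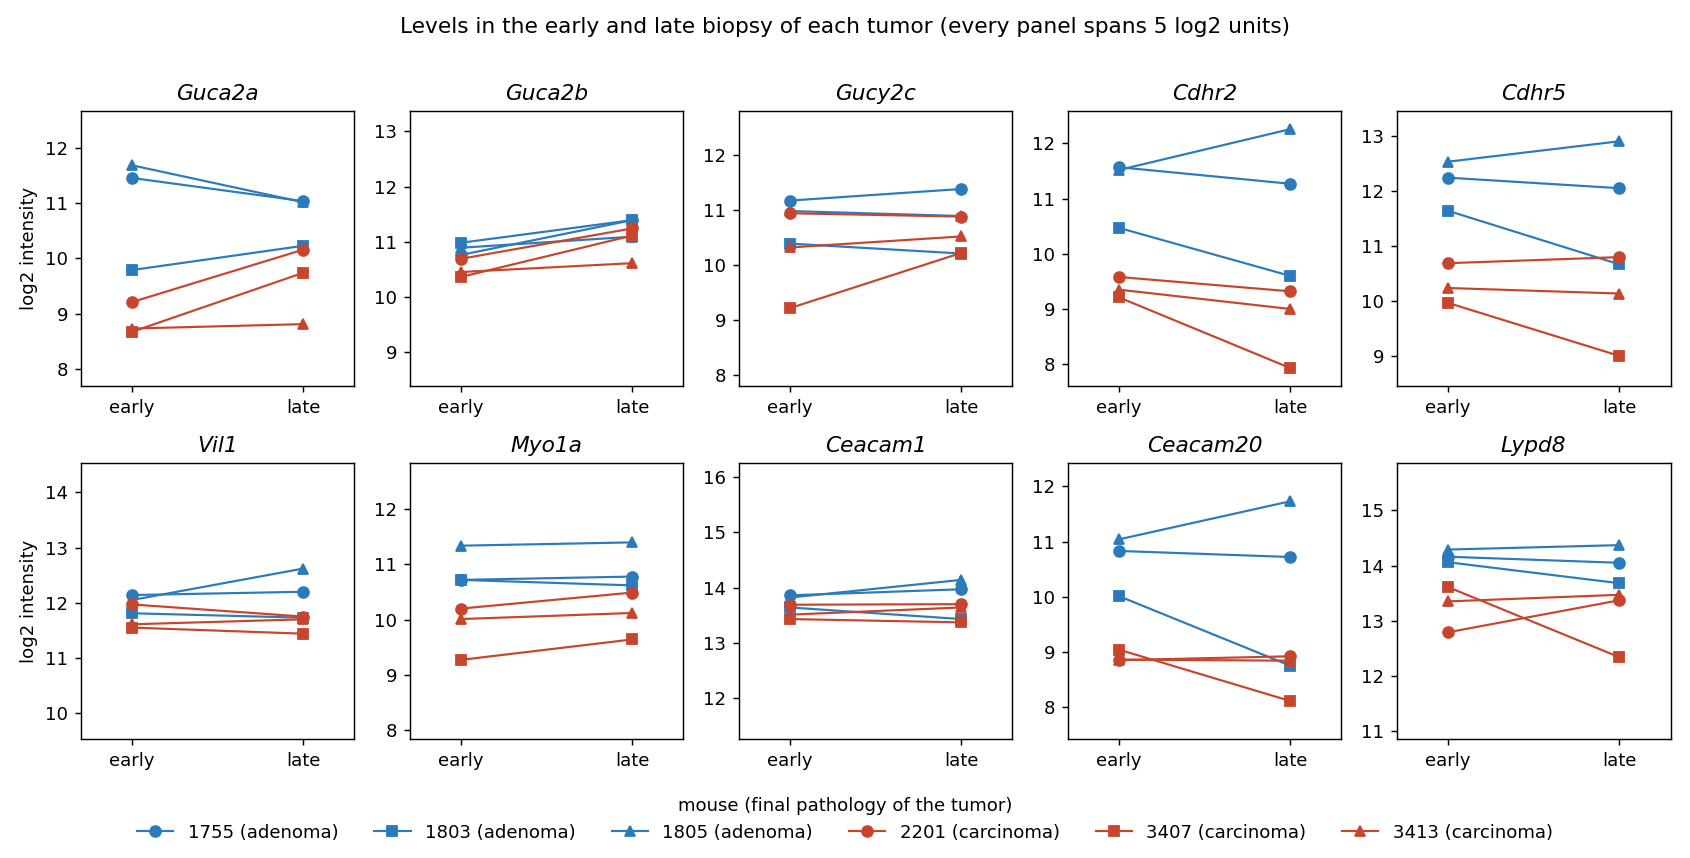
Level of each of the 10 genes (vertical axis, log2 intensity) in the early and late biopsy of every mouse, with lines joining the biopsies of a mouse and colour giving the final pathology. Every carcinoma point of Cdhr2, Myo1a and Lypd8 lies below every adenoma point, and the pathologies overlap over the 12 arrays for the other 7 genes.

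Of the guanylin genes, the ligand Guca2a differed most. Its early level was 11.46, 9.79 and 11.69 in adenoma mice 1755, 1803 and 1805, and 9.21, 8.67 and 8.73 in carcinoma mice 2201, 3407 and 3413. Its late level was 11.04, 10.23 and 11.02 in the adenoma mice and 10.16, 9.74 and 8.81 in the carcinoma mice. The pathologies did not overlap at either time, but mouse 1803 was the lowest adenoma both times and its late value was close to that of mouse 2201. The early difference was -2.11 (SE 0.459, limma adjusted p = 0.203), which is 4.33-fold, and Guca2a ranked 82 of 19938 genes by p. The late difference was -1.19 (SE 0.459, adjusted p = 0.409), or 2.28-fold. In mouse 2201, the carcinoma mouse whose early array shares the array group of the adenomas, early Guca2a lay 1.78 below the adenoma mean. With a term for the array group, the early difference was -1.99 (limma adjusted p = 0.461). Only the early carcinomas hold arrays of both array groups. For every gene this term thus rests largely on early mouse 2201 against early mice 3407 and 3413. It is no check apart from the value of mouse 2201.

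Uroguanylin, the second ligand, was spread over a much narrower range. Early Guca2b was 10.76, 10.98 and 10.89 in mice 1755, 1803 and 1805 and 10.69, 10.36 and 10.45 in mice 2201, 3407 and 3413, so the pathologies were apart by a small margin. Late Guca2b was 11.39, 11.39 and 11.09 in the adenoma mice and 11.24, 11.11 and 10.61 in the carcinoma mice, with overlap. The carcinoma minus adenoma difference of Guca2b was -0.38 early (SE 0.164, adjusted p = 0.402) and -0.30 late (SE 0.164, adjusted p = 0.486). The receptor Gucy2c ranged from 10.39 to 11.17 in early adenomas and from 9.22 to 10.94 in early carcinomas, and from 10.21 to 11.38 and 10.22 to 10.88 in the late ones. Its pathologies overlapped at both times. The difference of Gucy2c was -0.69 early (SE 0.39, 95% interval -1.55 to 0.18, adjusted p = 0.511) and -0.29 late (95% interval -1.15 to 0.57, adjusted p = 0.812). With a term for the array group, the early difference of Gucy2c was -0.03, and early Gucy2c of mouse 2201 was within the adenoma range.

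Among brush border genes the tip-link cadherins stood furthest apart. Cdhr2 was at 11.57, 10.47 and 11.52 in the early biopsies of mice 1755, 1803 and 1805, and at 9.58, 9.21 and 9.35 in those of mice 2201, 3407 and 3413. In the late biopsies it was at 11.27, 9.60 and 12.26 in the adenoma mice and at 9.32, 7.93 and 9.0 in the carcinoma mice. Every carcinoma array lay below every adenoma array, although late mouse 1803 came within a small step of the carcinomas. The difference of Cdhr2 was -1.81 early (SE 0.56, adjusted p = 0.292) and -2.29 late (SE 0.56, adjusted p = 0.401), the latter 4.89-fold.

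Its binding partner Cdhr5 was at 12.24, 11.64 and 12.53 in the early adenomas and at 10.69, 9.97 and 10.24 in the early carcinomas. Late Cdhr5 was at 12.05, 10.67 and 12.90 against 10.80, 9.01 and 10.14. The early groups did not overlap, and in the late groups mouse 1803 fell just under mouse 2201. The difference of Cdhr5 was -1.83 early (SE 0.521, adjusted p = 0.288) and -1.89 late (SE 0.521, adjusted p = 0.401). In mouse 2201, within the array group of the early adenomas, Cdhr2 lay 1.61 and Cdhr5 1.44 below the adenoma mean.

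Inside the microvillus, the membrane motor and the actin bundler gave differences of unequal size. Myo1a was at 10.72, 10.72 and 11.34 in early adenomas and at 10.20, 9.27 and 10.01 in early carcinomas, and at 10.78, 10.62 and 11.40 against 10.49, 9.64 and 10.12 in the late biopsies. The pathologies of Myo1a did not overlap over all 12 arrays. Its difference was -1.10 early (SE 0.274, adjusted p = 0.251) and -0.85 late (SE 0.274, adjusted p = 0.401). Vil1 stayed between 11.44 and 12.62 on all arrays, with overlap at both times. The difference of Vil1 was -0.29 early (95% interval -0.72 to 0.15, adjusted p = 0.588) and -0.55 late (95% interval -0.99 to -0.11, adjusted p = 0.402). With a term for the array group, the early difference of Vil1 was -0.07.

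Of the surface proteins, Ceacam20 had the largest differences between the pathologies and Ceacam1 the smallest. Early Ceacam20 was 10.83, 10.01 and 11.04 in mice 1755, 1803 and 1805 and 8.85, 9.04 and 8.86 in mice 2201, 3407 and 3413. Late Ceacam20 was 10.72, 8.75 and 11.73 in the adenoma mice and 8.92, 8.11 and 8.84 in the carcinoma mice. The early groups were well separated, whereas the late value of mouse 1803 lay inside the carcinoma range. The difference of Ceacam20 was -1.71 early (SE 0.574, adjusted p = 0.31) and -1.77 late (SE 0.574, adjusted p = 0.401). Lypd8 was at 14.16, 14.06 and 14.29 in early adenomas and at 12.79, 13.61 and 13.35 in early carcinomas. Late Lypd8 was at 14.05, 13.68 and 14.37 against 13.37, 12.34 and 13.47. No carcinoma array of Lypd8 reached an adenoma array, and the difference was -0.92 early (SE 0.333, adjusted p = 0.343) and -0.97 late (SE 0.333, adjusted p = 0.401). With a term for the array group early Lypd8 was at -1.49, and in mouse 2201 alone it lay 1.37 below the adenoma mean. Ceacam1 ranged from 13.37 to 14.14 over all arrays and overlapped at both times. Its difference was -0.23 early (95% interval -0.59 to 0.13) and -0.28 late (95% interval -0.64 to 0.08), and -0.13 early with a term for the array group. Whether the Ceacam1 probes also read its close relative Ceacam2 was not tested.

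Counted over the 10 genes, every carcinoma array lay below every adenoma array for 7 early (7.31% of all genes) and for 4 late (6.12% of all genes). The early 7 were Guca2a, Guca2b, Cdhr2, Cdhr5, Myo1a, Ceacam20 and Lypd8, and the late 4 were Guca2a, Cdhr2, Myo1a and Lypd8. The same separation at both times held for 4 of 10, against 1.82% of all genes. Over all 12 arrays it held for 3 of 10, Cdhr2, Myo1a and Lypd8, against 0.943% of all genes. In a comparison of the mean of both biopsies of a mouse, Lypd8 ranked 22 of 19938 genes by p with a difference of -0.94 (SE 0.158, adjusted p = 0.398), and 0 of 10 members were called (0% of genes).

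**Figure D2:**
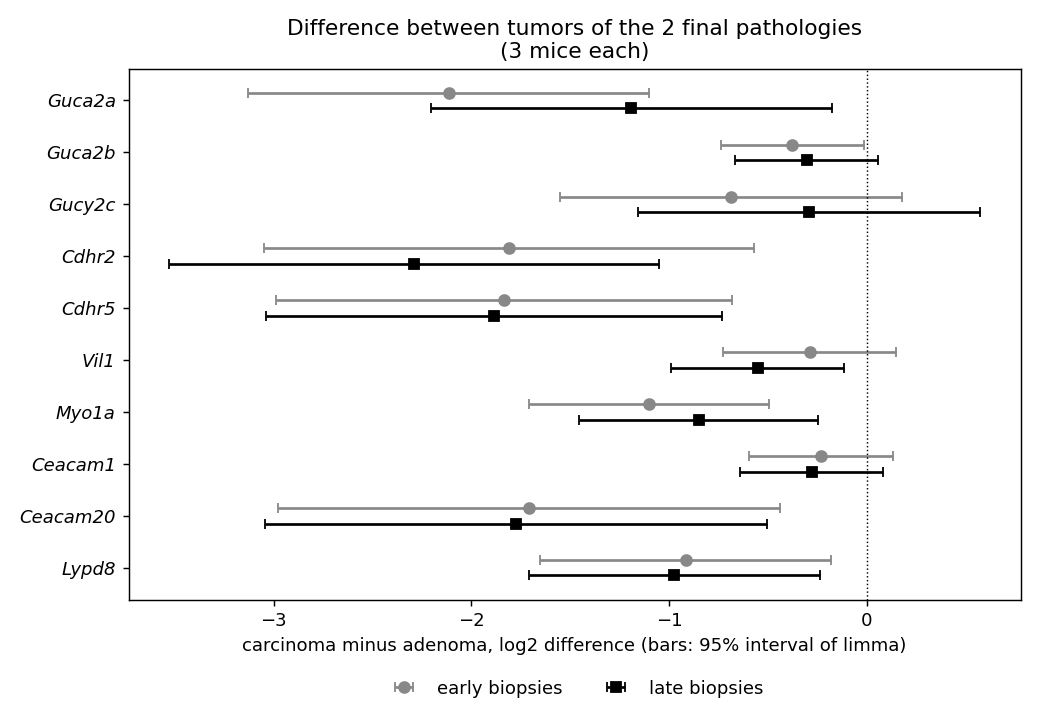
Carcinoma minus adenoma difference (horizontal axis, log2) of each gene at the early and late biopsy, with bars for the 95% interval of limma's fit. All 20 points lie below 0, from -2.29 for late Cdhr2 to -0.23 for early Ceacam1, and the intervals of Gucy2c and Ceacam1 include 0 at both times.

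Members passed only in refits without mouse 1803, the adenoma mouse with the lowest mean of the 10 genes at both times. Without it, leaving 2 adenoma mice, the late comparison called 395 genes (1.98% of genes tested) and 3 of 10 members. These were Cdhr2 at -3.01 (adjusted p = 0.0176), Cdhr5 at -2.49 (adjusted p = 0.037) and Ceacam20 at -2.60 (adjusted p = 0.0149). With another mouse left out, the late adjusted p of limma went as high as 0.945 for Cdhr2, 0.996 for Cdhr5 and 0.996 for Ceacam20. The early comparison without mouse 1803 called 67 genes (0.336% of genes tested) and 2 of 10 members, Guca2a at -2.71 (adjusted p = 0.0277) and Ceacam20 at -2.02 (adjusted p = 0.0499). In the comparison of both biopsies 91 genes (0.456% of genes tested) and 2 of 10 members passed, Cdhr2 at -2.59 (adjusted p = 0.0469) and Ceacam20 at -2.31 (adjusted p = 0.0392). The mean of the 10 genes was 11.35 early and 11.03 late in mouse 1803, against 11.89 and 11.88 in mouse 1755 and 12.02 and 12.24 in mouse 1805. In the carcinoma mice it was 10.43 to 10.86 early and 10.29 to 11.06 late, so late mouse 1803 lay level with mouse 2201. Genes with smaller differences also moved with single mice. Late Gucy2c was at -0.02 without mouse 1755, -0.13 without 3407, -0.46 without 2201 and -0.60 without 1803, in place of -0.29. Early Gucy2c was at -0.22 without mouse 3407 and -1.08 without 2201, in place of -0.69. Late Guca2b was at -0.11 without mouse 3413, in place of -0.30. Late Ceacam1 was at -0.13 without mouse 1805, -0.18 without 3407 and -0.49 without 1803, in place of -0.28. Without mouse 1805, late Vil1 was at -0.33 in place of -0.55 and late Ceacam20 at -1.11 in place of -1.77. Late Lypd8 was at -0.61 without mouse 3407, in place of -0.97.

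Over all 6 tumors, Guca2b was the only member that was higher in the late than in the early biopsy of every mouse. Its change was 0.63, 0.41 and 0.19 in mice 1755, 1803 and 1805 and 0.55, 0.74 and 0.15 in mice 2201, 3407 and 3413. The group level went from 10.69 ± 0.242 early to 11.14 ± 0.291 late (SD, n = 6 each), with overlap between the groups. The mean change of Guca2b was 0.45 (SE 0.0895, limma adjusted p = 0.206, higher in 6 of 6 mice), or 1.36-fold, rank 116 of 19938 genes. It was 0.45 ± 0.192 (SD) for the 4 mice whose biopsies lie in different array groups, and 0.45 ± 0.416 (SD) for the 2 mice with both in the second. No member was called late against early, nor was any other gene (0% of genes tested). Higher in 6 of 6 mice held for 1 of 10 members, against 2.59% of all genes, and lower in 6 of 6 for 0 of 10, against 5.19%.

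The other 9 members had mixed signs over the tumors. Guca2a changed by -0.43, 0.43 and -0.67 in the adenoma mice and by 0.95, 1.06 and 0.09 in the carcinoma mice. Its mean change over all tumors was 0.24 (SE 0.239, adjusted p = 0.682). The cadherin Cdhr2 was lower late in 5 of 6 mice, mouse 1805 being the exception at 0.73, with a mean of -0.39 (SE 0.23, adjusted p = 0.467). The motor Myo1a was higher late in 5 of 6 mice, with a mean of 0.13 (SE 0.071, adjusted p = 0.418). Mean changes of the remaining members were 0.18 for Gucy2c, 0.05 for Vil1, 0.05 for Ceacam1, -0.16 for Lypd8, -0.26 for Ceacam20 and -0.29 for Cdhr5. The median change of the 10 genes was 0.05, against -0.02 over all genes.

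**Figure D3:**
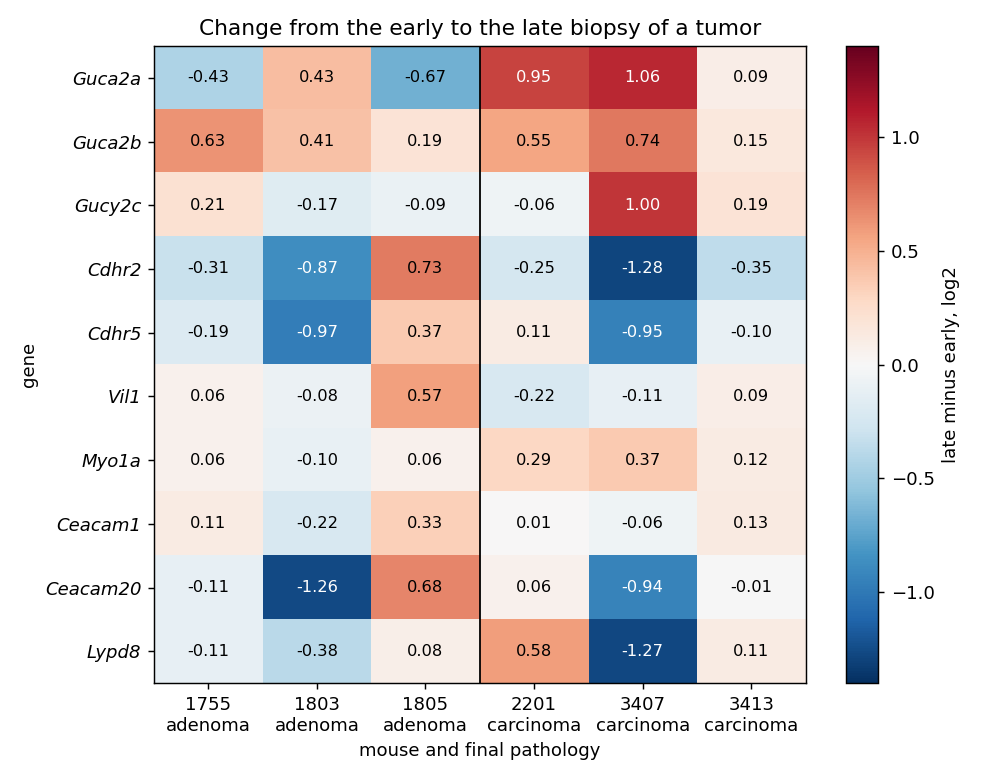
Late minus early change (log2) of each gene in each mouse, with colour and printed value for the size and the mice ordered by final pathology. Guca2b is above 0 in all 6 mice, from 0.15 to 0.74, while mouse 1805 is above 0 for Cdhr2, Cdhr5, Vil1 and Ceacam20 and mouse 3407 is below 0 for all 4.

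Single mice set much of this pattern. In mouse 1805 Cdhr2 changed by 0.73, Ceacam20 by 0.68, Vil1 by 0.57 and Cdhr5 by 0.37, each the highest of the 6 mice. Mouse 3407 had the lowest change of Cdhr2 (-1.28) and Lypd8 (-1.27), together with -0.95 for Cdhr5 and -0.94 for Ceacam20. In that same mouse the guanylin genes went the other way, with 1.06 for Guca2a, 0.74 for Guca2b and 1.00 for Gucy2c. Mouse 1803 had the lowest change of Ceacam20 (-1.26) and of Cdhr5 (-0.97). The late biopsy of mouse 1805 was also the array of the lowest correlation with the rest and had the lowest mean of stem cell and Wnt target genes, 9.72 against 10.82 to 11.62 on the other arrays, and their part in its values was not tested.

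Taken by pathology, Guca2b was higher late by 0.41 ± 0.219 in adenoma tumors and by 0.48 ± 0.30 in carcinoma tumors (SD, n = 3 each). In the adenoma tumors limma called 25 genes (0.125% of genes tested), of which 0 were members, and Guca2b had adjusted p = 0.196. In the carcinoma tumors it called 0 genes (0% of genes tested), with Guca2a higher by 0.70 ± 0.535, in 3 of 3 mice (adjusted p = 0.952). Myo1a was higher by 0.26 ± 0.131 there, also in 3 of 3 mice (adjusted p = 0.952), and Cdhr2 was lower by a mean change of -0.63 ± 0.568 in 3 of 3. The share of all genes with 1 sign in 3 of 3 mice is not given, so these counts are descriptions only. The difference between the changes, carcinoma less adenoma, was 0.92 for Guca2a (SE 0.364, adjusted p = 0.706) and 0.07 for Guca2b (SE 0.189, adjusted p = 0.942), with 0% of genes called. All 3 adenoma pairs cross the array groups, and a shift between array groups cannot be told apart from a change over time in these mice. With a term for the array group, the median change of the 10 genes in adenoma tumors was -0.32 in place of -0.08, and the median difference between the changes was 0.21 in place of -0.05.

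The spread of the genes over the arrays differed in size and source. Cdhr2 had the widest range, 20.1-fold with an SD of 1.30 log2, followed by Cdhr5 at 14.7-fold, Ceacam20 at 12.3-fold and Guca2a at 8.1-fold. Ceacam1 had the narrowest range, 1.71-fold, and Guca2b and Vil1 spanned 2.04-fold and 2.26-fold. The difference between pathologies held 67.3% of the sum of squares of Cdhr2, 67.2% of Cdhr5, 65.1% of Myo1a, 64.5% of Guca2a, 64.4% of Lypd8 and 61.1% of Ceacam20. For Gucy2c the largest share, 65.2%, lay between mice of 1 pathology, as it did for Ceacam1, at 53.1%. For Guca2b it lay between the time points, at 45.6%, where no other member exceeded 2.61%.

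Correlations over the 12 arrays, which hold 2 arrays of each of 6 mice and so are descriptions only, set the same genes together. Cdhr2 and Cdhr5 had r = 0.99, and 0.95 after the mean of each pathology was taken off. Cdhr2 and Ceacam20 had r = 0.98 (0.95 within pathologies), Cdhr5 and Ceacam20 0.96 (0.89), and Vil1 and Ceacam1 0.96 (0.94). Cdhr5 and Ceacam20 changed with the same sign in 6 of 6 mice. Guca2b stood apart, with a median r with the other members of 0.29, and -0.07 within pathologies. The ligand Guca2a had r = 0.69 with its receptor Gucy2c and 0.58 with Guca2b.

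Outside the members, the gene whose pattern was most like the mean of the 10 over the 12 arrays was the tetraspanin Tspan1 (r = 0.988). It was followed by the sulfide-oxidising enzyme Sqor (0.981), Clrn3 (0.98), the transporter Slc44a4 (0.977), Myo15b (0.975), Serhl (0.975), the chloride channel Clcn2 (0.974) and Phgr1 (0.973). Guca2a was most like Tff3 (0.947), a trefoil peptide of goblet cells, and Hepacam2 (0.94). Guca2b was most like the aldehyde dehydrogenases Aldh3b3 (0.869) and Aldh3b2 (0.843), and Gucy2c most like Sh3gl2 (0.925) and Gmds (0.919). Cdhr2 was most like Fa2h (0.991), a fatty acid hydroxylase, and Trim31 (0.99), and Trim31 was also close to Cdhr5 (0.983). Ceacam20 was most like Nat2 and Btnl5-ps (0.989 each), and Lypd8 most like Clca4a (0.952) and Clec2h (0.947). Vil1 and Ceacam1 shared Pcsk7 (0.987 and 0.971), and Myo1a was most like Mgst2 (0.971) and Ech1 (0.963).

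The upstream sequences of 6 members are shown because Guca2a and Guca2b are neighbours on chromosome 4 and yet differed in pattern, because Cdhr2, Cdhr5 and Ceacam20 varied together, and because 4 of the 6 hold a match searched for. They are the 250 bases before the annotated start in RefSeq on GRCm38.p6, 5′ to 3′ on the gene's strand: chr4:119637482-119637731 (plus strand) for Guca2a, chr4:119658946-119659195 (minus strand) for Guca2b, chr13:54701213-54701462 (plus strand) for Cdhr2, chr7:141276787-141277036 (minus strand) for Cdhr5, chr1:74409134-74409383 (plus strand) for Vil1 and chr7:19965162-19965411 (plus strand) for Ceacam20. Capitals mark matches, on either strand, to letters bound by intestinal factor families: TTTATNG for CDX, GTTAATNA for HNF1 and CAAAGNNC for HNF4.
Guca2a: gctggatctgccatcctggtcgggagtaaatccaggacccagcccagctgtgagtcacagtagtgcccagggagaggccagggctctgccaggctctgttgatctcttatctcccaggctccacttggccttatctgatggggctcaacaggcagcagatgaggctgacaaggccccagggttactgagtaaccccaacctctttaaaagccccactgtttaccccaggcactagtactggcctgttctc
Guca2b: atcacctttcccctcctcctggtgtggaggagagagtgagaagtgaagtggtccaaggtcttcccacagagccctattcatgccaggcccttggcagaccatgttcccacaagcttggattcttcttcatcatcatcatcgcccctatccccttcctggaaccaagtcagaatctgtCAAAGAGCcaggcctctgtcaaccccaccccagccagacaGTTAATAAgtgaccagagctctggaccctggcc
Cdhr2: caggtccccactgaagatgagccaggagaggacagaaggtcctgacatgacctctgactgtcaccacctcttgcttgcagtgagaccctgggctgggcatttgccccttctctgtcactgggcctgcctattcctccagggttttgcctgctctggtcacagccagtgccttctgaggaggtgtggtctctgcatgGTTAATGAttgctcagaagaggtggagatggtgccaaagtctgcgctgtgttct
Cdhr5: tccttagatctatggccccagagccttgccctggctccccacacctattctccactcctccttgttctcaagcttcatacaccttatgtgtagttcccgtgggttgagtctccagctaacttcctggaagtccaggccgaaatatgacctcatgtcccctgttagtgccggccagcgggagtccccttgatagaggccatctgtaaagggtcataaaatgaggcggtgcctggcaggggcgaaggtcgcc
Vil1: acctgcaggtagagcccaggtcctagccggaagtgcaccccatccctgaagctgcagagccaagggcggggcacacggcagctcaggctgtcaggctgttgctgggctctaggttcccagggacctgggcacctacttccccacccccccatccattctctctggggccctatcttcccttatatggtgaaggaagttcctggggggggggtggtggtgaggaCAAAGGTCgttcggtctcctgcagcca
Ceacam20: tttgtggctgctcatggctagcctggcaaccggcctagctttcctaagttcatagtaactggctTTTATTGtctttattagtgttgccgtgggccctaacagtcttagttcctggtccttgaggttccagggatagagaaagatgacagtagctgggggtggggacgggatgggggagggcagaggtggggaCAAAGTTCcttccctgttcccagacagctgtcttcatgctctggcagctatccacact

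Of the 10 members, 9 had an entry in the promoter table. Guca2b held an HNF4 match, CAAAGAGC, at bases -73 to -66 and an HNF1 match, GTTAATAA, at -33 to -26. Cdhr2 held the HNF1 match GTTAATGA at -54 to -47, and Vil1 the HNF4 match CAAAGGTC at -27 to -20. Ceacam20 held a CDX match at -186 to -180 and the HNF4 match CAAAGTTC at -58 to -51. In all, the HNF4 letters were in 3 of 9 members and 15.4% of 32851 promoters of that length, the HNF1 letters in 2 of 9 and 2.33%, and the CDX letters in 1 of 9 and 9.81%. The windows of Guca2a and Cdhr5 held none of these letters, and the 3 motifs do not share a match. The motifs were chosen with the promoters in view, so these shares are no test of enrichment. Members are counted by gene and all promoters by entry. The matches are descriptions of sequence, and binding was not measured.

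The transcription factors of the intestinal epithelium were lower on average in carcinoma too, all 7 of 7 at both times, with a median of -0.49 early and -0.43 late and 0 called. Hnf4a, a nuclear receptor of enterocyte differentiation, differed by -0.32 early (SE 0.139, adjusted p = 0.404) and -0.43 late (SE 0.139, adjusted p = 0.401). The homeobox factor Cdx1 differed by -0.73 and -0.58, Elf3 by -0.25 and -0.24, and Klf5, a factor of dividing crypt cells, by -0.04 and -0.02. These 4 were named by their p late against early. Chosen after their values were seen, Klf4 had the lowest early difference of the list, -1.73 (SE 0.368, adjusted p = 0.203), with -1.18 late, and Cdx2 the lowest late one, -1.81 (SE 0.769, adjusted p = 0.419), with -0.94 early. Late against early, Hnf4a was higher by 0.21 (SE 0.0707, adjusted p = 0.274), in 5 of 6 mice.

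Other genes of the brush border had smaller median differences. Of 14, 11 were lower in carcinoma early and 10 late, with medians of -0.22 and -0.26 and 0 called. Calml4 and Anks4b, which belong to the complex that anchors Cdhr2 and Cdhr5 in the microvillus tip, were the nearest to them in size among those named. Calml4 was at 10.24 ± 0.204 in early adenomas and 9.46 ± 0.103 in early carcinomas, and at 10.13 ± 0.329 and 9.33 ± 0.0583 late (SD, n = 3 each). Its difference was -0.79 early (SE 0.144, adjusted p = 0.148) and -0.80 late (SE 0.144, adjusted p = 0.401). Anks4b differed by -1.06 early and -1.33 late. Ush1c and Myo7b, also of this complex, were added after their values were seen. Ush1c had a mean of 9.89 in early adenomas and 9.12 in early carcinomas, and of 9.96 and 9.36 late. Myo7b did not follow the cadherins, with 11.37 in early adenomas and 11.50 in early carcinomas, and 11.58 and 11.53 late. The scaffold Slc9a3r1 differed by -0.28 and -0.27, and by -0.24 late against early (SE 0.0623, adjusted p = 0.238), lower in 6 of 6 mice. Pdzk1 differed by -0.02 at both times.

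Downstream of the guanylin receptor, 3 of 9 genes were lower in carcinoma at each time, the medians were 0.16 early and 0.10 late, and 0 were called. The chloride channel Cftr differed by 0.16 early (SE 0.536) and 0.43 late (SE 0.536, adjusted p = 0.795). Late against early, Cftr was higher by 0.46 (SE 0.146, adjusted p = 0.271), in 6 of 6 mice, as Guca2b was. The cyclic nucleotide phosphodiesterases Pde5a and Pde10a differed between pathologies by 0.25 and 0.33 early, and by 0.04 and -0.14 late. Slc26a3, the chloride and bicarbonate exchanger of surface colonocytes, had the lowest difference of these 9, -4.06 early (SE 0.878, adjusted p = 0.203) and -2.29 late (SE 0.878, adjusted p = 0.409). Its level was 10.27 ± 1.32 in early adenomas and 6.21 ± 0.738 in early carcinomas (SD, n = 3 each).

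Other genes of surface colonocytes were also lower in carcinoma on average. All 13 measured of 14 were so at both times, with medians of -1.41 early and -1.24 late, 0 called, and Slc26a3 among them. The carbonic anhydrase Car4 differed by -4.01 early (SE 0.824, adjusted p = 0.202) and by -1.0 late (SE 0.824, adjusted p = 0.665), Plac8 by -0.95 and -1.23, and Cyp2c55 by -1.67 and -0.34. Late against early, Car4 changed by -1.65 (SE 0.707, adjusted p = 0.338) and Slc26a3 by -1.36 (SE 0.504, adjusted p = 0.293), each lower in 5 of 6 mice. These were named for their small p in this comparison. The median over the 13 genes was -0.25, with a range of -1.65 to 0.06, and over the 10 members 0.05, with a range of -0.39 to 0.45.

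Markers of other cells differed between the pathologies by list and by time, with 0 genes called. Goblet cell markers, 7 measured of 8, were all lower in carcinoma, with a mean of 12.00 to 13.26 in early adenomas and 10.42 to 10.99 in early carcinomas, and 11.02 to 12.47 and 10.17 to 11.58 late. Epithelial markers were lower by a median of -0.16 early and -0.15 late, with means of 13.02 to 13.08 against 12.79 to 13.04 early and 12.88 to 13.27 against 12.82 to 12.86 late. Taken relative to the epithelial mean of each array, the median of the 10 members was -0.85 early and -0.73 late. On this scale 10 of 10 were below 0 at both times, and the share of all genes below 0 is not given. This scale takes the same value off every gene of an array, so the differences of all members moved by the same amount. Late Cdhr2, for example, was at -2.10 in place of -2.29. Small differences moved most relative to their size. Gucy2c was then at -0.10 late in place of -0.29, Guca2b at -0.21 early and -0.12 late in place of -0.38 and -0.30, and Vil1 at -0.12 early in place of -0.29. Ceacam1 was at -0.07 early and -0.09 late, in place of -0.23 and -0.28. Fibroblast markers had a mean of 9.90 to 10.85 in early adenomas and 10.46 to 11.99 in early carcinomas, and 11.40 to 11.82 and 11.56 to 11.67 late. Stem cell and Wnt target genes were higher in carcinoma by a median of 0.17 early and 0.92 late, and proliferation genes, 5 measured of 6, by 0.39 and 0.47. The late mean of the stem cell and Wnt list was 11.18, 11.41 and 9.72 in adenoma mice 1755, 1803 and 1805. It was 11.61 to 11.62 in the late carcinomas, so mouse 1805 lay furthest off. Endothelial markers differed by a median of 0.88 early and -0.03 late, neutrophil markers by 1.18 and -0.73, smooth muscle markers by 0.00 and -0.47, and leukocyte markers, 6 measured of 7, by 0.10 and 0.41. Late against early, beside the change of Guca2b, fibroblast, endothelial and neutrophil markers were higher by medians of 0.90, 0.95 and 1.17, and epithelial markers differed by -0.02, with 0 genes called. In adenoma tumors these 3 stromal and neutrophil medians were 1.38, 1.42 and 2.19, and in carcinoma tumors 0.40, 0.43 and 0.23. The part of these cells in the members' differences was not tested beyond the values given. With age at the late biopsy as a term, the median of the members was -0.73, and Gucy2c was at -0.62 in place of -0.29.

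**Figure D4:**
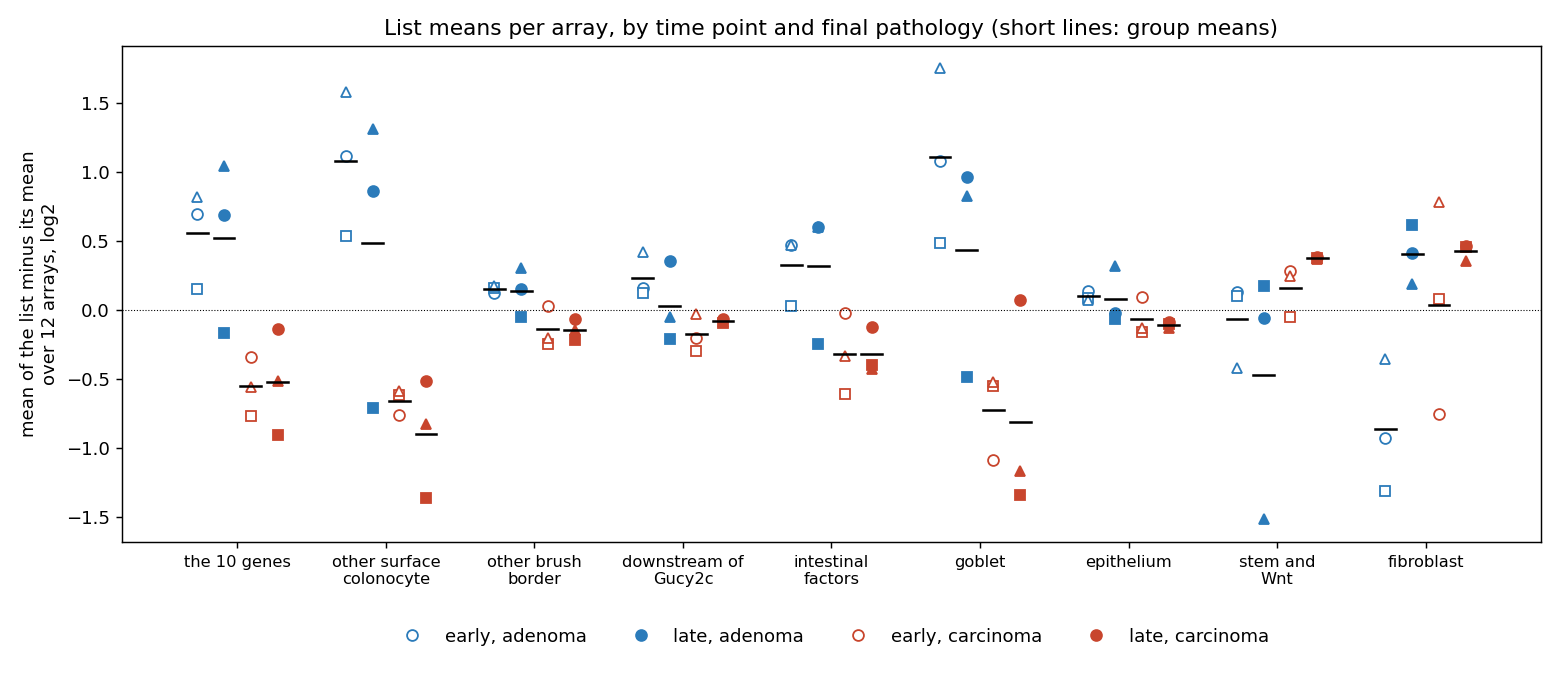
Mean of each gene list on every array less its mean over the 12 arrays (vertical axis, log2). Beside the 10 members are the other surface colonocyte, other brush border, Gucy2c downstream, intestinal factor, goblet, epithelial, stem and Wnt, and fibroblast lists. Colour gives the final pathology, open markers the early and filled ones the late biopsy, and shape the mouse within a pathology. The members run from -0.91 in the late biopsy of mouse 3407 to 1.04 in that of mouse 1805, and the epithelial list from -0.16 to 0.32.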

How the data were processed

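Intensities of 35557 probe sets on 12 arrays were used as deposited by the authors and read as log2 values from their range, since the labels give no unit. Not given in the sources used here is how they were normalized. Per the labels' protocols, 300 ng of biopsy RNA was labelled with the Ambion WT kit, and biopsies were kept in RLT buffer or RNALater. Probe sets with 1 symbol (21789; 1621 had several, 12147 none) gave 19938 genes, each represented by its probe set of highest mean.

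Tests were those of limma 3.58.1 under R 4.3.3 (lmFit and eBayes, 2-sided, Benjamini-Hochberg over all genes, threshold 0.05), tested on simulated data. Late against early used mouse as a fixed block. Pathologies were compared in a fit of 4 groups in which duplicateCorrelation took the mouse as a random block (consensus correlation 0.286). SE and 95% intervals are those of the fit, and ± is the SD. Late against early, the p-values measure the spread of the change between tumors, 1 per mouse as far as the labels say. Between pathologies at 1 time point they pool the spread of early and late arrays, with 8 residual degrees of freedom. For genes whose biopsies of a mouse are more alike than the consensus correlation, arrays then count partly as separate mice. Most members are likely of this kind. Their sum of squares between mice of a pathology exceeded the rest, for example 32% against 1.69% for Myo1a and 65.2% against 12.7% for Gucy2c. Lypd8 was the exception, with 10% against 23.6%. SE, intervals and p-values at 1 time point are thus likely too small for most members. The comparison of both biopsies used 1 mean per mouse and 4 residual degrees of freedom. The labels pair early and late arrays by animal. Deviations from the mean of the time point correlated within pairs at 0.11 to 0.527, over 0.1 in 6 of 6 pairs. Pathology, which both biopsies of a mouse share, is part of this correlation, and arrays of different mice were not compared. The values are thus no test of the pairing. The recorded sex matched on 12 of 12 arrays.

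The members, lists, array groups and tests were chosen with earlier results of these data known, the motifs with the promoters in view. All members were named, up to 4 genes of each related list by the smallest unadjusted p late against early, and as most alike the 8 highest Pearson r with the members' mean and 2 per member, among genes above the 25th percentile. The comparison of both biopsies and the one relative to epithelium were added after seeing the data. Alternatives were each mouse left out, other blocks, quantile or median scaling, a filter on dim genes, probe set means, a trended prior, array group and age.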

Additional observations from a re-analysis of the deposited data

Results flagged for a closer look

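The late minus early change of Gucy2c in mouse 3407 was 1.00, against -0.17 to 0.21 in the other 5 mice. Its gap to the nearest mouse was 0.677 of the whole range, above Dixon's critical value for 6 samples, and it was the only such value in 30 groups looked at. Chance alone gives about 1 such value in 20 groups. The early level of Gucy2c in this mouse, 9.22, was the lowest of the 12 arrays.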

How the results depend on the processing

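In the comparisons between pathologies no alternative turned the sign of a member, but sizes moved with 1 mouse left out: Gucy2c ranged from -0.60 to -0.02 late and -1.08 to -0.22 early, Guca2b from -0.43 to -0.11 late, and Ceacam1 from -0.49 to -0.13 late. With 1 mouse left out, genes called ranged from 0 to 395 late, 0 to 67 early and 0 to 91 over both biopsies, the highest each time without mouse 1803, and the members' median from -1.09 to -0.62, -1.18 to -0.88 and -1.08 to -0.79. Late against early was less stable. With 1 mouse left out, genes called ranged from 0 to 2 over all tumors, 0 to 78 in adenoma, 0 to 1 in carcinoma and 0 to 0 for the difference of changes, and the members' median from -0.03 to 0.09, -0.09 to 0.15, -0.10 to 0.07 and -0.19 to 0.17. The 25 genes called in adenoma tumors became 2 with no replicate block, 304 with a random replicate block, 42 with arrays centred on the median, 13 above the 25th percentile and 0 with the array group as a term (1142 at an unadjusted p under 0.05 in limma). Over all tumors 4 genes passed with a random block and 33 with age as a continuous term, and in carcinoma tumors 1 with a random block, each in place of 0. The array group term moved the members' median to -0.32 in adenoma tumors and to 0.21 for the difference of changes. It turned Vil1 to -0.01 over all tumors, Gucy2c to 0.64 and Myo1a to -0.04 in adenoma tumors, and the difference of changes to -0.04 for Gucy2c, 0.37 for Cdhr5, 0.30 for Ceacam20 and 0.71 for Lypd8. Median centring turned Myo1a to -0.04 in adenoma tumors and Ceacam1 to 0.00 in carcinoma tumors. The causes were not tested. Leaving out 1 mouse turned single members. Over all tumors Vil1 ranged from -0.05 to 0.11, Ceacam1 from -0.01 to 0.10 and Lypd8 from -0.31 to 0.06. In adenoma tumors Guca2a ranged from -0.55 to 0.00, Gucy2c from -0.13 to 0.06, Cdhr2 from -0.59 to 0.21, Cdhr5 from -0.58 to 0.09, Vil1 from -0.01 to 0.32, Myo1a from -0.02 to 0.06, Ceacam1 from -0.05 to 0.22 and Ceacam20 from -0.69 to 0.29. In carcinoma tumors Cdhr5 ranged from -0.53 to 0.01, Ceacam1 from -0.03 to 0.07, Ceacam20 from -0.47 to 0.03 and Lypd8 from -0.58 to 0.35. The difference of changes ranged from -0.06 to 0.24 for Guca2b, -0.41 to 0.27 for Cdhr5, -0.19 to 0.08 for Ceacam1, -0.58 to 0.39 for Ceacam20 and -0.44 to 0.48 for Lypd8. Guca2b over all tumors stayed between 0.39 and 0.50, at adjusted p 0.113 to 0.525. The number of arrays limits precision.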
